A study of Mus musculus with 6 samples.

Results

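Fatty acid beta-oxidation and the first and last mitochondrial enzymes of ketone body synthesis were followed in livers of Fah-deficient mice through 32 listed genes. Of these, 30 were matched to a probe set that carries their symbol alone in the annotation used here, out of 22180 genes matched in this way, and for each the probe set with the highest mean signal was read. Acsl1 and Acsl3 were not analysed here. All 6 arrays came from livers of male FAH5981SB mice of the C57Bl/6J background, aged 12 weeks, which carry a point mutation in Fah and so lack fumarylacetoacetate hydrolase, the last enzyme of tyrosine breakdown. Both groups were raised on a chow low in tyrosine and phenylalanine and on drinking water with 8 mg/l NTBC (nitisinone, a drug that blocks tyrosine breakdown upstream of the missing enzyme) and 3% dextrose. In the continuous group (3 arrays) NTBC was never stopped. Mice of the withdrawal group (3 arrays) lost the drug at 11 weeks of age, and their livers were taken 7 days later. Every animal carries the mutation, no liver with a working Fah gene was analysed here, and whether the dextrose continued without the drug is not stated in the labels. The labels call the samples biological replicates without naming animals or cages, so p-values here reflect only how far these samples differ among themselves. Arrays are called by their group and replicate number.

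Fatty acids enter oxidation after an acyl-CoA synthetase has joined them to coenzyme A. In mitochondria they are carried in as carnitine esters and shortened by cycles of dehydrogenation, hydration, a further dehydrogenation and thiolytic cleavage, and in the fasted liver much of the acetyl-CoA formed becomes ketone bodies. Peroxisomes run a parallel set of steps with their own enzymes, mainly for very long or branched chains, and pass shortened chains on as carnitine esters. Many genes of both routes are known targets of the nuclear receptor PPARA.

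Values below are log2 signals, and a change is the log2 signal after withdrawal minus that with continuous NTBC. A member is said to have risen or fallen where its adjusted p, from limma over all 34472 probe sets with Benjamini-Hochberg adjustment, was below 0.05. Across the 3 arrays of each group the members had changes between -1.51 and 1.12, with standard errors of 0.14 to 0.23. After withdrawal 6 of the 30 measured members (20%) rose, against 6.21% of all probe sets, and 3 (10%) fell, against 3.20% of all probe sets. Most members are bright on the array: all but Hadhb had a mean signal above the median probe set, and among probe sets above that median 11.6% rose and 5.13% fell. The risers were Acsl4, Pex11a, Crat, Hadhb, Ehhadh and Acadm, and those that fell were Crot, Cpt1a and Etfdh. The members had a median change of 0.13, beside -0.08 over all probe sets, and 17 changes lay above 0 and 13 below it.

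**Figure D1:**
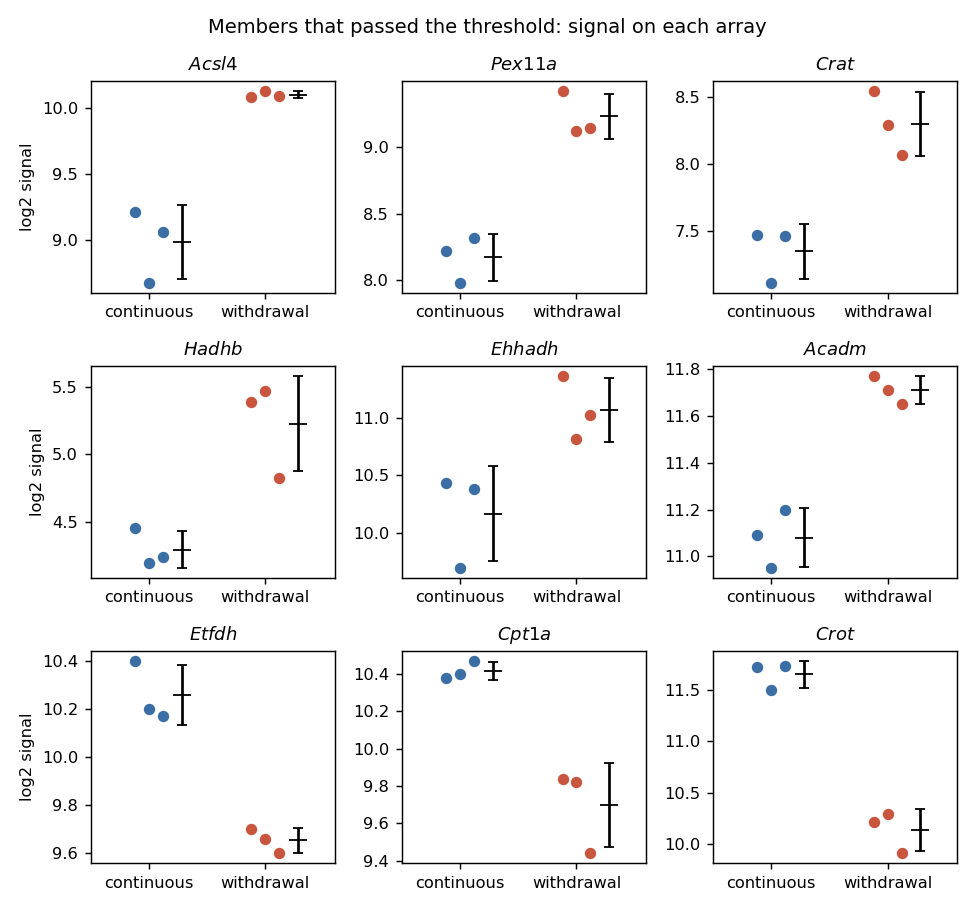
Each panel plots the log2 signal of one of the 9 members that passed the threshold, with a point for each of the 3 arrays of a group (blue, continuous NTBC; red, withdrawal) and the mean with SD as a bar; each panel has its own vertical range. No continuous array overlaps a withdrawal array in any panel, with Crot the largest fall (-1.51) and Acsl4 the largest rise (1.12).

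The activating enzymes were represented by 2 of the 4 acyl-CoA synthetases listed. Acsl4, which prefers arachidonic and other polyunsaturated acids, had signals of 9.21, 8.67 and 9.06 with continuous NTBC and 10.08, 10.13 and 10.09 after withdrawal. All withdrawal arrays lay above all continuous arrays, and the 3 withdrawal signals were within 0.05 of each other. Acsl4 rose 2.17-fold (change 1.12, SE 0.17, adjusted p = 0.00257). Acsl5, a synthetase of the endoplasmic reticulum and the mitochondrial outer membrane, stood at 10.49, 10.11 and 10.28 against 10.54, 10.38 and 10.21. Its groups overlapped, and its change of 0.08 had a 95% interval from -0.28 to 0.45 (adjusted p = 0.799).

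The enzymes that make and use acylcarnitines went in different directions. Cpt1a, the malonyl-CoA-sensitive transferase of the outer membrane that admits long chains to mitochondria, had signals of 10.38, 10.40 and 10.47 with continuous NTBC and 9.84, 9.82 and 9.44 after withdrawal. The continuous arrays lay close together and withdrawal array 3 was the lowest of all. Cpt1a fell 1.64-fold (change -0.72, SE 0.16, adjusted p = 0.0185). The call was lost without continuous array 2 (adjusted p = 0.0534), continuous array 3 (0.0564), withdrawal array 1 (0.0527) or withdrawal array 3 (0.0588), and with median centring (0.0616). Cpt2, which turns the carnitine ester back into acyl-CoA at the inner membrane, had 9.42, 9.22 and 9.31 against 9.75, 9.65 and 9.62. Its groups did not overlap either, with the withdrawal arrays above, but its change of 0.36 (95% interval 0.04 to 0.67) missed the threshold (adjusted p = 0.158).

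Crot, the peroxisomal carnitine octanoyltransferase that converts shortened chains into carnitine esters for export, had the lowest change of the 30 members. Its signals were 11.72, 11.50 and 11.73 with continuous NTBC and 10.21, 10.29 and 9.91 after withdrawal. The groups were separated by more than a log2 unit, and Crot fell 2.85-fold (change -1.51, SE 0.16, adjusted p = 3.17e-04). Its adjusted p lay between 2.51e-05 and 0.00224 under the alternative settings, leaving out any 1 array included. Crat, carnitine acetyltransferase, which acts on acetyl-CoA and other short chains in mitochondria and peroxisomes, had 7.47, 7.11 and 7.46 against 8.55, 8.29 and 8.07. On this probe set Crat rose 1.94-fold (change 0.96, SE 0.18, adjusted p = 0.00767). On its other, dimmer probe set the change was 0.04 (SE 0.18, adjusted p = 0.917), with group means of 6.41 and 6.45. The mean of both probe sets gave a change of 0.50 with adjusted p = 0.0667, so the rise of Crat rests on 1 of its 2 probe sets.

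The promoters of the member with the largest fall and of 2 peroxisomal members that rose are shown because the compartment held changes in opposite directions. They run from 250 bases before to 50 bases after the annotated start (RefSeq, GRCm38.p6, minus strand in each case), written 5′ to 3′ on the gene's strand. Capitals mark GGGCGG, the core of the GC box, and AGGTCA, the hexamer of nuclear receptor sites, on either strand.
Crot, chr5:8997097-8997396: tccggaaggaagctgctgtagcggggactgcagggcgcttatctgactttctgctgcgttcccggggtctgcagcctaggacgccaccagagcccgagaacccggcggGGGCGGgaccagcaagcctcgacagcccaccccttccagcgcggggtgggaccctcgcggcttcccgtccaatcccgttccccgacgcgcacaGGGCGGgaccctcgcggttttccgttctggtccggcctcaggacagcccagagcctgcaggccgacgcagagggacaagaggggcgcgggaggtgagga
Pex11a, chr7:79743082-79743381: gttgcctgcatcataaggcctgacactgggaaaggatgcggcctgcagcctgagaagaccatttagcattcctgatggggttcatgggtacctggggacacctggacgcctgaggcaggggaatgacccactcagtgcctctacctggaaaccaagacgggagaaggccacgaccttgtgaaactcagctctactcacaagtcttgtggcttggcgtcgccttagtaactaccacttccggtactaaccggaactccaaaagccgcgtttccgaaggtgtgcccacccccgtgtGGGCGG
Ehhadh, chr16:21787785-21788084: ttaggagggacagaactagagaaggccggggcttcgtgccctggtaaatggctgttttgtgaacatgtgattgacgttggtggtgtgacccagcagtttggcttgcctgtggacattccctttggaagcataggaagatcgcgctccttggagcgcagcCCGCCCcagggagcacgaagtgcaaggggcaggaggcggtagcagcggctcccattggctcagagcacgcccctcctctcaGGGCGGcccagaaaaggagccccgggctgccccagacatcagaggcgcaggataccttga
All 3 windows hold at least 1 GC box core and none holds the AGGTCA hexamer, whatever the direction of the gene's change.

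Of the 4 mitochondrial acyl-CoA dehydrogenases, which start each cycle and differ in the chain length they prefer, 1 rose and none fell. Acadm, the medium-chain enzyme, had signals of 11.09, 10.95 and 11.20 with continuous NTBC and 11.77, 11.71 and 11.65 after withdrawal. The withdrawal arrays were all higher, and Acadm rose 1.55-fold (change 0.63, SE 0.14, adjusted p = 0.0215). That call was lost without continuous array 2 (adjusted p = 0.0724), withdrawal array 1 (0.117) or withdrawal array 2 (0.0798). Acads, the short-chain enzyme, had 9.40, 9.17 and 9.35 against 8.93, 9.06 and 8.94. Its withdrawal arrays were all lower, with a change of -0.33 (95% interval -0.65 to -0.01) that did not pass (adjusted p = 0.20). Acadvl and Acadl, the very-long-chain and long-chain enzymes, had overlapping groups and changes of -0.10 (95% interval -0.42 to 0.23) and 0.05 (-0.29 to 0.39).
Among the risers whose promoter window was read, Acadm was the one with an AGGTCA hexamer, and its window has no GC box core (RefSeq, GRCm38.p6, minus strand, capitals as above).
Acadm, chr3:153944594-153944893: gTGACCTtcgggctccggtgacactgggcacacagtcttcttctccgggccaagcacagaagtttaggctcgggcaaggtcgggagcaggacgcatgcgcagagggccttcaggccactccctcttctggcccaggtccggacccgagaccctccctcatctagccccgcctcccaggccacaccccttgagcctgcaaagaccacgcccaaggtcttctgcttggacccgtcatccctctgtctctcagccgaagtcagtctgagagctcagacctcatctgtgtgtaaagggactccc

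The later steps of the mitochondrial cycle are carried by the trifunctional protein, whose subunits Hadha (hydratase and long-chain dehydrogenase) and Hadhb (thiolase) act on long chains, and by Echs1, Hadh and Acaa2, the hydratase, dehydrogenase and thiolase for shorter ones. Hadhb had signals of 4.45, 4.19 and 4.24 with continuous NTBC and 5.39, 5.47 and 4.82 after withdrawal. It rose 1.91-fold (change 0.93, SE 0.19, adjusted p = 0.0132). On 2 of the 6 arrays its signal lay below the array's lower quartile and on 4 below the array's median, so the fold of this dim probe set is uncertain. The call was lost without continuous array 2 (adjusted p = 0.0547), withdrawal array 1 (0.0737) or withdrawal array 2 (0.0651). Hadha had 10.87, 10.70 and 10.86 against 11.30, 11.09 and 11.24. Its withdrawal arrays were also all higher, with a change of 0.40 (95% interval 0.08 to 0.72) that did not pass (adjusted p = 0.122).
Hadha and Hadhb are neighbours that start back to back on chromosome 5, with 272 bases between their annotated starts, so their promoter windows share 228 bases. This stretch is shown because the 2 genes of 1 protein complex had changes of the same sign. It is written on the plus strand, the strand of Hadhb, with capitals for the GC box core (RefSeq, GRCm38.p6).
Hadha and Hadhb, chr5:30155003-30155230: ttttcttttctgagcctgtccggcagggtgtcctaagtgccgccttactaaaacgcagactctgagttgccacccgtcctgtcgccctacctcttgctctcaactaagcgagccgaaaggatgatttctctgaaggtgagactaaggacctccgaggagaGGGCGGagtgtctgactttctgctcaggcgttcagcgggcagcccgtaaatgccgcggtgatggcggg

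None of the other 3 enzymes of this group passed. Hadh had 11.31, 11.11 and 11.17 against 11.63, 11.47 and 11.43 (change 0.31, 95% interval -0.01 to 0.64). Echs1 had 10.12, 9.84 and 9.85 against 9.66, 9.75 and 9.48 (change -0.31, -0.65 to 0.04), and Acaa2 had 11.37, 11.33 and 11.25 against 11.19, 11.01 and 10.85 (change -0.30, -0.63 to 0.03). The groups of all 3 were separated, the withdrawal arrays above for Hadh and below for Echs1 and Acaa2. Of the mitochondrial enzymes that handle double bonds, the isomerase Eci1 had a change of 0.31 (95% interval -0.01 to 0.63) and the reductase Decr1 one of -0.33 (-0.67 to 0.02), and neither passed.

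**Figure D2:**
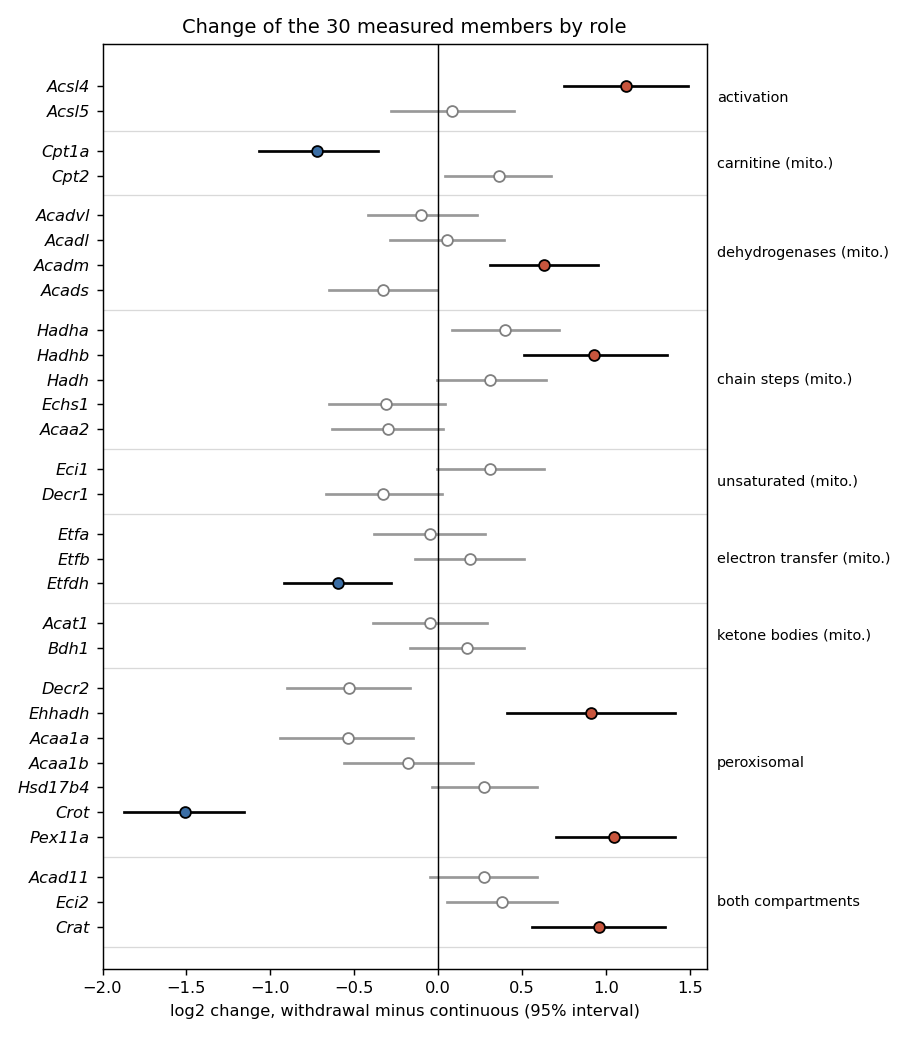
Points are the log2 change of each of the 30 measured members (withdrawal minus continuous NTBC, 3 arrays a group) with limma's 95% interval, ordered by role; red points rose, blue points fell and open points did not pass the threshold. The peroxisomal group holds both rises and a fall, and the 2 enzymes of ketone body metabolism lie near 0.

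Electrons from the acyl-CoA dehydrogenases pass through the electron transfer flavoprotein, made of Etfa and Etfb, to its membrane oxidoreductase Etfdh and on to ubiquinone. Etfdh had signals of 10.40, 10.20 and 10.17 with continuous NTBC and 9.70, 9.66 and 9.60 after withdrawal, with no overlap. It fell 1.52-fold (change -0.60, SE 0.14, adjusted p = 0.0258). The Etfdh call was lost without continuous array 2 (adjusted p = 0.0563) or any 1 withdrawal array (0.0721 to 0.102), and with median centring (0.101). Etfa and Etfb had overlapping groups and changes of -0.05 (95% interval -0.38 to 0.28) and 0.19 (-0.14 to 0.51).

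The ketone body enzymes among the members did not pass in either direction. Acat1, the mitochondrial acetoacetyl-CoA thiolase, had 11.10, 10.78 and 11.11 with continuous NTBC and 11.01, 10.93 and 10.90 after withdrawal. Its change was -0.05 (95% interval -0.39 to 0.29, adjusted p = 0.874). Bdh1, which interconverts acetoacetate and beta-hydroxybutyrate, had 8.58, 8.57 and 8.37 against 8.87, 8.61 and 8.55 (change 0.17, 95% interval -0.17 to 0.51, adjusted p = 0.546). The groups overlapped for both genes, and the intervals leave room for changes of up to 0.51 in size. Around them, a list of 7 further genes of ketone body use and transport had 5 measured, of which 1 rose and 2 fell, with a median change of -0.05. The carrier Slc16a1, which moves lactate, pyruvate and ketone bodies across the cell membrane, had 8.33, 7.95 and 8.30 against 9.99, 9.75 and 9.68 and rose 3.06-fold (change 1.61, SE 0.17, adjusted p = 2.61e-04). Bdh2, a cytosolic dehydrogenase (change -0.69, adjusted p = 0.0268), and the carrier Slc16a6 (change -0.66, adjusted p = 0.0440) fell. Without withdrawal array 1 both falls were lost (adjusted p = 0.110 and 0.210), and no member of this list fell without continuous array 3, withdrawal array 1 or withdrawal array 2, or with median centring. Oxct1, the ketone-using transferase that hepatocytes largely lack, had overlapping groups.

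Of the 7 peroxisomal members 2 rose, 1 fell and 4 did not pass. Ehhadh, the bifunctional enzyme with hydratase and dehydrogenase activity, had signals of 10.43, 9.69 and 10.38 with continuous NTBC and 11.37, 10.82 and 11.03 after withdrawal. Continuous array 2 was well below the other continuous arrays, and without it the change was 0.67 and no longer passed (adjusted p = 0.0888). With all arrays Ehhadh rose 1.87-fold (change 0.91, SE 0.23, adjusted p = 0.0313). The call was also lost without withdrawal array 1 (adjusted p = 0.143) or withdrawal array 3 (0.0710). Pex11a, a membrane protein of peroxisome division and no enzyme, had 8.22, 7.98 and 8.32 against 9.42, 9.12 and 9.14. It rose 2.08-fold (change 1.05, SE 0.16, adjusted p = 0.00275), with adjusted p between 7.19e-04 and 0.0208 under the alternative settings. Hsd17b4, the second bifunctional enzyme, which handles branched and very long chains and bile acid precursors, had 10.83, 10.77 and 10.79 against 11.15, 11.13 and 10.93. Its withdrawal arrays were all higher, with a change of 0.27 (95% interval -0.04 to 0.59, adjusted p = 0.281).

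The remaining peroxisomal members had lower means after withdrawal without passing. Decr2, the peroxisomal dienoyl-CoA reductase, had 10.76, 10.38 and 10.31 against 10.03, 9.99 and 9.83 (change -0.53, 95% interval -0.90 to -0.17, adjusted p = 0.0751). Acaa1a, a thiolase, had 8.02, 8.29 and 7.84 against 7.43, 7.76 and 7.33 (change -0.54, 95% interval -0.94 to -0.15, adjusted p = 0.0896). Both had all withdrawal arrays below all continuous arrays, and both passed as lower with quantile normalization (adjusted p = 0.0217 and 0.0313) and without dim probe sets (0.0359 and 0.0453). Acaa1b, the close copy of Acaa1a and a classic PPARA target, had 9.74, 9.17 and 9.43 against 9.38, 9.27 and 9.16. Its groups overlapped (change -0.18, 95% interval -0.56 to 0.21). Transcripts of these near-identical genes may bind each other's probes, so their separate values are uncertain.

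Acad11 and Eci2 have been placed in both compartments, and they were kept apart from either side, as was Crat. Acad11, an acyl-CoA dehydrogenase, had 10.06, 10.00 and 10.19 against 10.43, 10.39 and 10.25 (change 0.27, 95% interval -0.05 to 0.59). Eci2, an isomerase of unsaturated chains, had 8.84, 8.62 and 8.77 against 9.27, 9.0 and 9.11 (change 0.38, 95% interval 0.05 to 0.71, adjusted p = 0.151). The withdrawal arrays lay above the continuous arrays for both, though neither passed.

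Mitochondrial and peroxisomal members were then set side by side. Of 18 mitochondrial members 2 rose and 2 fell (11.1% each), and of 7 peroxisomal members 2 rose (28.6%) and 1 fell (14.3%). Over all probe sets 6.21% rose and 3.20% fell, and among those above the median signal 11.6% rose and 5.13% fell. The share of mitochondrial risers was thus near that of bright probe sets, but 1 of the 2 risers, Hadhb, is itself dim. The share of mitochondrial members that fell (11.1%, 2 genes) lay above that of bright probe sets (5.13%). The median change was 0.00 for the mitochondrial and -0.18 for the peroxisomal members, and the median size of the change, whatever its sign, was 0.31 and 0.54, beside 0.22 over all probe sets. The mean log2 signal of the peroxisomal members minus that of the mitochondrial ones was 0.12, -0.04 and 0.05 on the continuous arrays and -0.03, -0.06 and -0.10 on the withdrawal arrays. The groups overlap in this difference, since continuous array 2 lies at the level of the withdrawal arrays. The difference of the medians (-0.18) depended on where single genes were placed: it was 0.27 with Acad11, Eci2 and Crat counted as peroxisomal and -0.35 without Pex11a. It was -0.05 without continuous array 1. No test was made of the difference between compartments, because the members were chosen with earlier results of these data known.

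**Figure D3:**
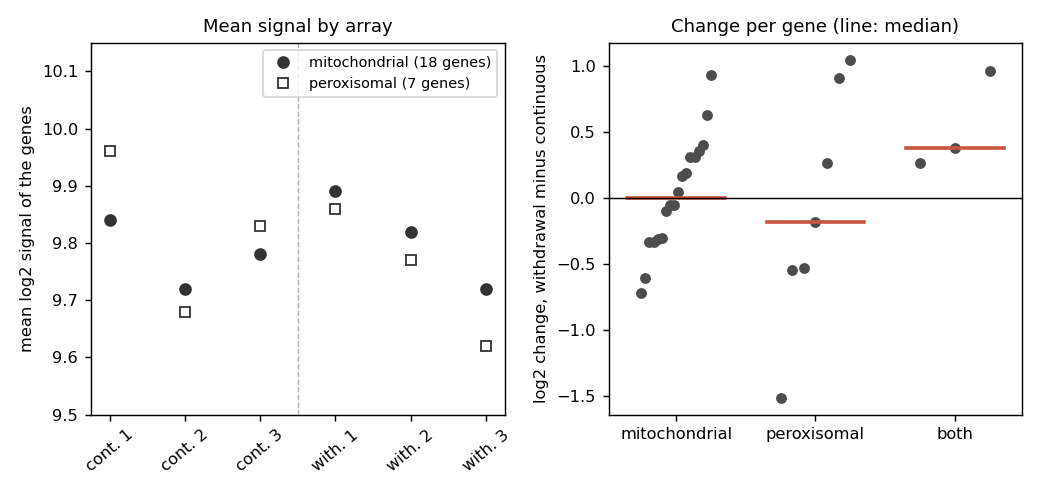
The left panel plots, for each array, the mean log2 signal of the 18 mitochondrial (filled circles) and 7 peroxisomal members (open squares) on an axis that does not start at 0, and the right panel the log2 change of each gene, withdrawal minus continuous NTBC, with a line at the median. The peroxisomal genes spread from -1.51 to 1.05 and the mitochondrial ones from -0.72 to 0.93.

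Step by step, the counterparts in the 2 compartments had changes of the same sign for the reductases and the bifunctional proteins. The reductases Decr1 and Decr2 had changes of -0.33 and -0.53. The isomerases Eci1, which is mitochondrial, and Eci2, which was counted in neither compartment, had changes of 0.31 and 0.38. The proteins that join hydratase and dehydrogenase activity had changes of 0.40 (Hadha), 0.91 (Ehhadh) and 0.27 (Hsd17b4). Among the thiolases, Acaa2, Acaa1a and Acaa1b had changes below 0 (-0.30, -0.54 and -0.18), while Hadhb rose (0.93). Only Ehhadh and Hadhb among these passed, and no difference between counterparts was tested.

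In all, 21 of the 30 measured members had groups that did not overlap, 13 with the withdrawal arrays above and 8 with them below. Over all probe sets, dim ones included, 27.6% had separated groups, 13.9% with the withdrawal arrays above and 13.7% below. Most members are bright, and the share among bright probe sets alone was not taken. The 9 members with overlapping groups were Acsl5, Acadvl, Acadl, Decr1, Etfa, Etfb, Acat1, Bdh1 and Acaa1b.

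The other genes of the pathway were read from lists written beside the members. The counts of each list stand beside 6.21% of all probe sets that rose and 3.20% that fell. Among probe sets above the median signal these shares were 11.6% and 5.13%. Of 17 further mitochondrial genes 16 were measured, of which none rose and 1 fell in limma's fit (median change -0.19). An unadjusted p below 0.05 was reached by 9 of the 16, a larger share than the 23.5% of all probe sets, dim ones included. The one that fell was Mlycd, which removes malonyl-CoA, the inhibitor of Cpt1a (8.15, 7.86 and 7.93 against 7.32, 7.37 and 6.97, change -0.76, adjusted p = 0.0171). That call was lost without withdrawal array 1 (0.0569) or withdrawal array 3 (0.0577) and with median centring (0.0627). Acacb, which makes malonyl-CoA at the mitochondrial surface, had a change of -0.67 (adjusted p = 0.0554) and Echdc2, a hydratase-like protein, of -0.66 (adjusted p = 0.0664). Both passed as lower under several alternatives, and with them the count of lower genes in the list ran from 0 to 6. Slc25a20, which exchanges acylcarnitine across the inner membrane, had overlapping groups and a change of 0.09 (adjusted p = 0.780), which was -0.02 with quantile normalization.

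Of 19 further peroxisomal genes 16 were measured, of which 2 rose and 4 fell (median change -0.02). Nudt7, a peroxisomal coenzyme A hydrolase, had 11.34, 10.76 and 10.62 with continuous NTBC and 8.58, 8.67 and 8.59 after withdrawal, a 4.90-fold fall (change -2.29, SE 0.19, adjusted p = 8.04e-05). Phyh, which starts the alpha-oxidation of phytanic acid, went from 11.34, 10.97 and 11.01 to 9.29, 9.34 and 9.67 (change -1.67, SE 0.17, adjusted p = 2.53e-04). Scp2, a sterol carrier and thiolase of branched chains, fell by 0.97 (adjusted p = 0.00193). Acox3, an oxidase of branched chains, fell by 0.81 (adjusted p = 0.0154), a call lost without continuous array 2 (0.0516), withdrawal array 1 (0.0739) or withdrawal array 3 (0.0514) and with median centring (0.0505). The transporter Abcd2 (change 1.44, adjusted p = 0.0461) and the tether Acbd5 (change 0.53, adjusted p = 0.0442) rose. Without continuous array 2, continuous array 3, withdrawal array 1 or withdrawal array 2, and with quantile normalization, none of the list rose.

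Peroxisome assembly genes gave 1 riser among 15 measured, Pex13 of the import machinery (change 0.70, adjusted p = 0.0216), and none that fell (median change 0.13). The Pex13 call was lost without continuous array 2 (adjusted p = 0.0734), withdrawal array 1 (0.109) or withdrawal array 2 (0.0909). Of these 15 genes 9 had an unadjusted p below 0.05, beside the same 23.5% of all probe sets. With quantile normalization 1 rose and 3 fell, among them Pex26 (change -0.67), an anchor of the import machinery. With array weights 4 rose and none fell, and without dim probe sets 2 rose and none fell. Pex3, which inserts peroxisomal membrane proteins, had a change of 0.49 that did not pass (adjusted p = 0.0907). It passed as higher with array weights (0.0409) and without dim probe sets (0.0447).

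Among 16 measured regulators 4 rose and 2 fell, with a median change of -0.08. Ppara itself had 8.56, 8.91 and 8.52 against 8.70, 8.56 and 8.30, with overlapping groups and a change of -0.14 (SE 0.17, adjusted p = 0.658). Its partner Rxra, the shared heterodimer receptor, fell from 10.09, 9.90 and 9.63 to 9.12, 9.08 and 8.88 (change -0.85, SE 0.17, adjusted p = 0.010). The related receptors Pparg (change 1.11, adjusted p = 0.00516) and Ppard (change 0.81, adjusted p = 0.00833) rose, as did the phosphatidate phosphatase Lpin2 (change 1.22, adjusted p = 0.00114) and the deacetylase Sirt1 (change 0.70, adjusted p = 0.0154). The Sirt1 call was lost without continuous array 2 (0.0554), withdrawal array 1 (0.0655) or withdrawal array 2 (0.0633) and with quantile normalization (0.0753), and that of Ppard without withdrawal array 1 (0.0501). Ppargc1a, the coactivator of the fasting response, had overlapping groups and a change of -0.17 (adjusted p = 0.683), which was 0.08 without continuous array 1. Its relative Ppargc1b fell (change -0.71, adjusted p = 0.0356), a call lost without continuous array 1 (0.0595), continuous array 2 (0.122), withdrawal array 1 (0.116) or withdrawal array 3 (0.103) and with median centring (0.101).

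Of 20 measured PPARA targets that are not beta-oxidation enzymes 10 rose (50%) and 1 fell (5%), with a median change of 0.80. Among probe sets above the median signal 11.6% rose and 5.13% fell, and over all probe sets 6.21% and 3.20%. No test was made against the members, since both lists were chosen with earlier results of these data known. Pdk4, which holds back pyruvate oxidation, had 5.53, 6.43 and 5.80 with continuous NTBC and 9.72, 8.58 and 7.75 after withdrawal (change 2.76, SE 0.42, adjusted p = 0.00260). The hormone Fgf21 had 6.46, 7.35 and 6.31 against 9.67, 9.68 and 8.38 (change 2.54, SE 0.36, adjusted p = 0.00193). Withdrawal array 3 had the lowest signal of its group for both. The smallest p-values in this list were those of Cidec (change 3.90), Cd36 (2.69) and Acot2 (2.57), which serve lipid droplets, fatty acid uptake and acyl-CoA hydrolysis, and Fabp1, the cytosolic binding protein, fell (change -1.02, adjusted p = 0.00542). Cyp4a14, another target, had 10.56, 7.66 and 8.95 against 10.59, 8.63 and 8.65, so that its spread within groups exceeded its change of 0.23. Of the other targets that rose, Plin2 and Fitm1, both of lipid droplets, passed narrowly (adjusted p = 0.0475 and 0.0476). Plin2 lost its call with quantile normalization (0.0516) and without continuous array 2 (0.114), continuous array 3 (0.136), withdrawal array 1 (0.214) or withdrawal array 2 (0.123). Fitm1 lost its call with quantile normalization (0.228), with the mean of its probe sets (change 0.40, adjusted p = 0.170), with the replicate block (0.0659) and without any 1 array other than withdrawal array 2 (0.0571 to 0.195).

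**Figure D4:**
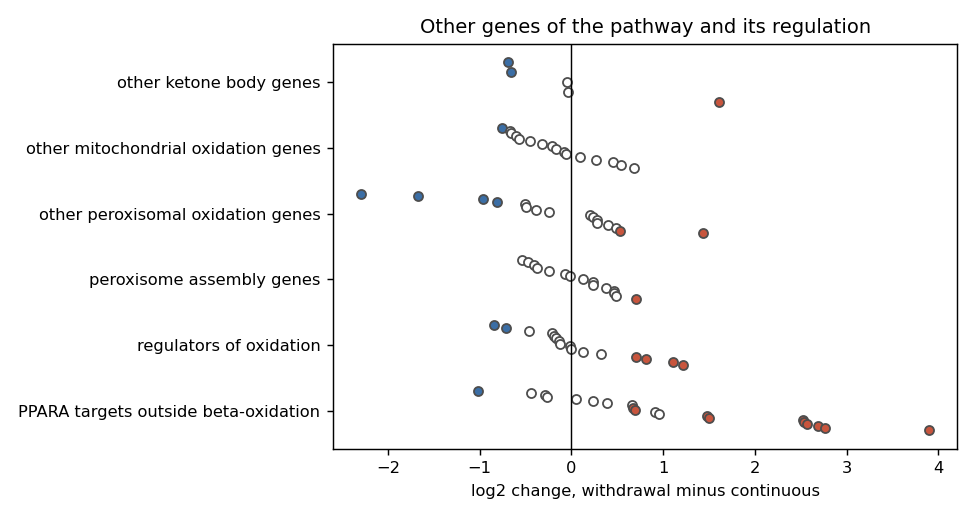
Each point is the log2 change, withdrawal minus continuous NTBC, of a measured gene of the 6 other pathway lists; red points rose, blue points fell and open points did not pass. The list of PPARA targets outside beta-oxidation reaches 3.90, and the list of other peroxisomal genes reaches down to -2.29.

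The promoter windows of 25 of the 30 measured members were in the RefSeq table (GRCm38.p6), and those of Acaa2, Acat1, Crat, Decr1 and Hsd17b4 were not used here. The direct repeat bound by PPARA with its partner was searched on both strands as AGGTCANAGGTCA and in the relaxed form AGGNCANAGGNCA, which includes the former. Neither was found in any window of the 25 members. In the whole set of 32851 windows, from 27025 genes, 0.0396% and 0.381% held them. The hexamer AGGTCA alone was found for 4 of the 25 members, Acadm, Acadvl, Cpt1a and Echs1, against 16.3% of all windows. The GC box core GGGCGG was found for 20 of the 25 members, against 35.7% of all windows, and TATAAA for none, against 13.6%. A member counted where any of its windows matched, while the shares are by window, so the measures differ. These are matches of letters in a window of 300 bases and say nothing of sites outside it.

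The livers were checked for the cells they hold, since in bulk tissue fewer cells of a type and less RNA per cell cannot be told apart. The summed signal of 9 measured hepatocyte markers was 86023 to 91387 with continuous NTBC and 76896 to 84130 after withdrawal, with 1 of the 9, the urea cycle enzyme Cps1, lower. That of 10 sinusoidal endothelial markers was 1842 to 2200 and 2784 to 2851, with 3 of the 10 (Lyve1, Clec4g and Gpr182) higher and none lower. Adipocyte markers summed to 7955 to 9365 and 2773 to 4611, with 1 of 8 lower and 1 higher. The lower was Car3, which leads the sum and which hepatocytes also make (change -1.61, adjusted p = 0.00148), and the higher was the lipase Pnpla2 (change 0.67, adjusted p = 0.0264), while Adipoq and Lep, which define fat cells, lay below the median of every array. Markers of Kupffer cells, stellate cells, cholangiocytes and lymphocytes gave no call in either direction by limma among 10, 10, 6 and 10 measured (1, 3, 1 and 1 had an unadjusted p below 0.05), nor did the 1 measured erythroid marker (0 at that p). Neutrophil markers summed to 212 to 269 and 180 to 227, with 1 of 8 lower. That one, Retnlg, lay below the lower quartile on all 6 arrays, and 7 of the 8 had a mean signal below the median. The hepatocyte, endothelial and adipocyte sums did not overlap between the groups. Nor did the signal of the 1 erythroid marker, Slc4a1 (49.87 to 53.82 with continuous NTBC and 54.57 to 64.45 after withdrawal). Taken singly, 6 of the 9 hepatocyte markers had overlapping groups. The median change of the 9 was -0.07, beside -1.08 for Cps1, and the hepatocyte sum without Cps1 was not taken. The part of these cell types in the members' changes was not tested. Fah, mutated in every animal, had overlapping groups (8.30, 7.63 and 7.52 against 7.68, 7.88 and 7.43), so it does not tell the groups apart.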

How the data were processed

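The deposited table holds normalized probe set intensities on a linear scale from Affymetrix whole-transcript arrays, hybridised from 100 ng of total RNA per the labels' protocols. The submitters' processing notes name Transcriptome Analysis Console; version, background correction and normalization are not given in the sources used here. The intensities turned out to be log2 values of 2 decimals raised back to the linear scale (all within a tolerance of 0.006). There are no detection flags, and having 3 arrays in each group limits the precision. Pearson correlations between arrays were 0.978 to 0.991 within groups and 0.955 to 0.969 between them.

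The log2 intensities (34472 probe sets) went into limma 3.58.1 under R 4.3.3 (lmFit, eBayes, two-sided, Benjamini-Hochberg over all probe sets, threshold 0.05, no filter), and the fit was tested on simulated data. Genes were named from GEO's platform annotation (23521 probe sets with 1 symbol, 1814 with several, 9137 with none), 23328 of them matched to GRCm38.p6 by identifier. For each gene the probe set with the highest mean was used. All members were named, and from every other list the 3 genes with the smallest p-values, every gene of a direction with 5 or fewer calls, and Ppara, Ppargc1a, Slc25a20, Fgf21, Pdk4 and Fah. Cyp4a14, Oxct1, Plin2, Fitm1, Acot1 and the markers were named after their values were seen. Members and lists were chosen with earlier results of these data known. The labels do not say that the replicate numbers pair the samples, so the main fit has no block. Deviations of same-numbered arrays from their group means correlated at 0.160, -0.125 and 0.217, which cannot settle whether they pair. Alternatives covered normalization, dim probe sets, the block, weights, the prior, probe set choice and each array left out.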

Additional observations from a re-analysis of the deposited data

How the results depend on the processing

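Of 479 comparisons of single members with an alternative setting, 436 kept their direction and their side of the threshold, 26 lost a call, 8 gained one and 9 changed sign. Those 9 were members near 0 that passed under no setting: Acsl5 and Bdh1 with quantile normalization (-0.0033 and -0.01), Acadvl, Etfa and Acat1 with median centring (0.0033, 0.05 and 0.05) and, with 1 array left out, Acat1 (-0.16 to 0.0067), Acsl5 (-0.0083 to 0.18) and Acadl (-0.02 to 0.16). Over all probe sets the median change was -0.08 as deposited and 0.02 after median centring. With that centring 1 member fell and the mitochondrial median was 0.10. With quantile normalization 6 members fell and the peroxisomal minus mitochondrial difference was -0.29. Without dim probe sets 5 members fell. Requiring a 2-fold change left 1178 probe sets, 2 members higher (Acsl4 and Pex11a) and 1 lower (Crot). Array weights gave 5588 probe sets past the threshold, where the fit without them gave 3241. The compartment difference was 0.27 with Acad11, Eci2 and Crat as peroxisomal, and -0.35 with them as mitochondrial or without Pex11a. Leaving out 1 array gave 1454 to 4210 probe sets, 3 to 6 members higher, 1 to 3 lower, a peroxisomal median of -0.31 to -0.03 and a difference of -0.30 to -0.05. The lowest counts came without withdrawal replicate 1 (1454 probe sets, 3 higher and 1 lower), and without continuous replicate 2 the members also gave 3 higher and 1 lower. Acsl4, Pex11a, Crat and Crot kept their calls without any 1 array. With the replicate number as a replicate block 3298 probe sets passed, with 6 members higher and 3 lower, and no call of a member changed. Among the other genes the block ended the calls of Acbd5 (adjusted p = 0.0617) and Fitm1 (0.0659) and brought in Acacb, Echdc2 and Acot1 (0.0419, 0.0443 and 0.0320). Among those named outside the members, signs changed for Slc25a20 with quantile normalization (-0.02), Ppargc1a with array weights (0.0032) and without continuous replicate 1 (0.08), and Fah without continuous replicate 1 (0.09). With 1 array left out Ppargc1a ranged from -0.32 to 0.08 and Fah from -0.30 to 0.09. These alternatives for genes outside the members were chosen after seeing the data. The cause of these shifts was not tested, and signal over background is not known for these values.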
